A study of Mus musculus with 18 samples.

Results

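The livers of mice that lack the apoptosis inhibitor of macrophages (AIM) were compared with wild-type livers before any high-fat feeding. The comparison sets 3 arrays of AIM-KO liver against 3 arrays of WT liver, all from mice on normal chow, out of 18 arrays in all. The arrays were taken by those labels, and all 14694 annotated genes that were bright enough on the arrays were tested. AIM-KO mice were labelled AIM-/- and WT mice AIM+/+, both on a C57BL/6 background. The other 12 arrays hold the same 2 genotypes after 12 or 20 weeks of a high-fat diet, again with 3 arrays a group. The labels call the 3 arrays of a group biological replicates but do not say whether each was a separate mouse, so the p-values measure the spread between these samples. The labels state neither age, sex nor time of day at sampling, and do not say how the AIM gene was inactivated.

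AIM is a secreted protein encoded by Cd5l. Resident macrophages make it, in the liver chiefly the Kupffer cells that line the sinusoids, and in blood it travels bound to immunoglobulin M. It can be taken up through the scavenger receptor CD36, and inside fat-storing cells it inhibits fatty acid synthase and promotes the breakdown of lipid droplets. The comparison on chow asks what the liver transcriptome looks like without AIM when the diet does not load the liver with fat.

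The values were MAS5 intensities, which are brightness values on a linear scale, from whole-liver RNA on Affymetrix mouse arrays. The median intensity of the 6 chow arrays lay between 15 and 17.9, and the number of arrays, not a read depth, limits the precision. The ratio of 3' to 5' signal for actin, a sign of RNA quality, was 2.53, 2.75 and 2.74 on the WT arrays and 2.65, 2.61 and 2.25 on the AIM-KO arrays. Pairs of chow arrays correlated at 0.956 to 0.968 within a genotype and at 0.957 to 0.968 between genotypes, so the genotypes did not separate on overall similarity. On all 6 chow arrays Xist, the transcript of the inactive X chromosome, was low at 7.8 to 19.6 and the Y-linked gene Eif2s3y was high at 499.5 to 675.1. At 20 weeks Xist was high on 4 arrays, all 3 of AIM-KO and WT replicate 2, so differences between genotypes there move with that marker. The fit pools the spread of all groups, so the mixed WT group at 20 weeks also enters the SEs and p-values on chow. In whole liver, fewer cells of a type and less RNA per cell cannot be told apart.

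Cd5l itself was read first. Its intensity was 702.6, 781.0 and 753.9 on the WT arrays and 11.7, 4.0 and 12.5 on the AIM-KO arrays, so the AIM-KO arrays all lay near background. The log2 difference, taken here and below on log2 of intensity plus 3.3 and as AIM-KO minus WT, was -5.96 ± 0.35 (SE, n = 3 and 3 arrays, limma, adjusted p = 2e-08). The size depends on the added constant, because the AIM-KO values are so low: it was -5.09 with a constant 4 times larger and -6.33 with one 4 times smaller. The labels do not say whether its probes lie inside the altered stretch. Cd5l was as low in AIM-KO at the other times, with log2 differences of -6.50 at 12 weeks and -6.70 at 20 weeks. The WT level was higher on the high-fat diet arrays, at 964.6 to 1588.7 at 12 weeks and 1289.3 to 1926.8 at 20 weeks.

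The other Kupffer cell markers were not called. Of 18 listed markers, 17 were tested, and Cd5l was the only member called. The differences of the other members ran from -0.38 to 0.21 on the log2 scale, and the median of the list, Cd5l included, was -0.08. Their summed intensity, Cd5l included, was 7488.2 to 8164.7 in WT and 6512.9 to 7305.9 in AIM-KO. Of these sums Cd5l alone held 702.6 to 781.0 in WT and 4.0 to 12.5 in AIM-KO. Clec4f, a lectin restricted to Kupffer cells, read 377.8, 419.3 and 406.0 in WT and 398.1, 336.4 and 394.7 in AIM-KO. Vsig4, a complement receptor of these cells, read 606.0, 560.9 and 522.2 in WT against 541.1, 508.7 and 646.0 in AIM-KO. The macrophage gene Adgre1 differed by 0.15 and the complement gene C1qb by 0.21, while Timd4, a receptor for dying cells, differed by -0.38. For 13 of the 17 members the 95% interval of the difference lay within 2-fold in either direction. Cd163 and Marco, which encode scavenger receptors, had wide intervals, from -1.61 to 1.35 and from -1.46 to 1.30, so a change of 2-fold in them was not detectable here.

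Defining hepatocyte markers were bright in both genotypes. Of the 13 tested, none was called and 12 had an interval within 2-fold. Albumin (Alb) differed by -0.07 and Cps1, the entry enzyme of the urea cycle, by 0.04. The summed intensity of other marker lists was set between genotypes only, since levels of different probe sets cannot be compared. The sums of 6 cholangiocyte markers were 60.7 to 87.1 in WT and 57.3 to 95.3 in AIM-KO, those of 9 T and NK cell markers 94.0 to 119.5 and 106.1 to 143.2, and those of 7 fat, muscle and pancreas markers 11039.9 to 13364.6 and 11915.3 to 13998.0. All 3 pairs of ranges overlap. The 7 neutrophil markers summed to 124.2 to 178.9 in WT and 90.2 to 107.6 in AIM-KO and the 18 stellate cell and fibrosis genes to 2694.9 to 3088.5 and 2437.4 to 2664.3, and neither pair of ranges overlaps. The part of these markers in other differences was not tested. By the member with the smallest p, Sox9 of the cholangiocyte list differed by -0.34 (adjusted p = 0.92), Cela1, a pancreatic elastase, by 0.29 (adjusted p = 0.84) and the lysozyme gene Lyz2 of the recruited macrophage list by -0.18 (adjusted p = 0.87).

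Beyond Cd5l, 3 genes passed the threshold of an adjusted p under 0.05 on chow. In all, 4 of 14694 genes were called, or 0.0272%: 1 gene was higher in AIM-KO (0.00681%) and 3 were lower (0.0204%). All 4 lie on mouse chromosome 3. They were chosen by this threshold, and each is described below with every array.

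Asic5 was the gene that rose. It encodes a channel of the acid-sensing family that bile acids can open, also known as the bile acid-sensitive ion channel. Its intensity was 43.8, 57.0 and 59.0 in WT and 501.3, 530.8 and 560.1 in AIM-KO, with a wide gap between the groups. The log2 difference was 3.25 ± 0.22 (SE, n = 3 and 3, limma, adjusted p = 1.2e-07), with a 95% interval from 2.78 to 3.71, or about 9.5-fold higher. The difference was present on the other diets too, at 2.55 after 12 weeks and 2.87 after 20 weeks, with adjusted p-values of 6.7e-06 and 9.8e-07. In WT liver the gene stayed dim at every time, between 31.3 and 74.9 over 9 arrays.

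Papss1 fell. Its enzyme makes PAPS, the activated sulfate that all sulfotransferases use as their donor. WT arrays read 171.0, 136.4 and 159.7 and AIM-KO arrays read 47.9, 60.5 and 65.7, so every AIM-KO array was below every WT array. The log2 difference was -1.38 ± 0.14 (SE, limma, adjusted p = 5.1e-05), about 2.6-fold lower. With the spread estimated from the 6 chow arrays alone the call was lost (adjusted p = 0.063), as it was when a change above 1.5-fold was required (adjusted p = 0.054). On the high-fat diet the difference was smaller, -0.37 at 12 weeks and -0.30 at 20 weeks, with adjusted p-values of 0.43 and 0.36, though the groups still did not overlap (114.2 to 141.0 against 155.1 to 170.5, and 96.7 to 117.4 against 123.6 to 141.3). The change in the difference from chow did not pass the threshold, with adjusted p-values of 0.17 for 12 weeks and 0.073 for 20 weeks. Papss2, the other gene for this enzyme activity, differed by 0.20 (adjusted p = 0.84). Of 10 sulfotransferase-list genes tested, none was called, and their median difference was 0.15. The member with the smallest p, Sult5a1, differed by 0.85 (adjusted p = 0.53).

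Selenbp1 also fell, by a smaller amount. It encodes a selenium-binding protein that is abundant in hepatocytes and oxidises methanethiol. WT arrays read 4273.7, 4969.6 and 5357.1 and AIM-KO arrays read 3260.4, 2948.9 and 3198.8. The groups did not overlap, and the log2 difference was -0.63 ± 0.10 (SE, limma, adjusted p = 0.017), about 1.55-fold lower. A second probe set of the gene read 3211.9 to 3494.9 in WT and 2400.2 to 3156.8 in AIM-KO, a difference of -0.28. The call rested on the analysis: the mean of both probe sets gave -0.45 (adjusted p = 0.16), and the 6 chow arrays alone gave an adjusted p of 0.37. Without WT replicate 2 the adjusted p was 0.16, without WT replicate 3 it was 0.11 and without AIM-KO replicate 2 it was 0.088. After high-fat feeding the difference was -0.21 at 12 weeks and 0.14 at 20 weeks, with adjusted p-values of 0.60 and 0.57. At 20 weeks the AIM-KO arrays, at 2917.3 to 2979.9, lay just above the WT arrays, at 2515.8 to 2866.2.

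**Figure D1:**
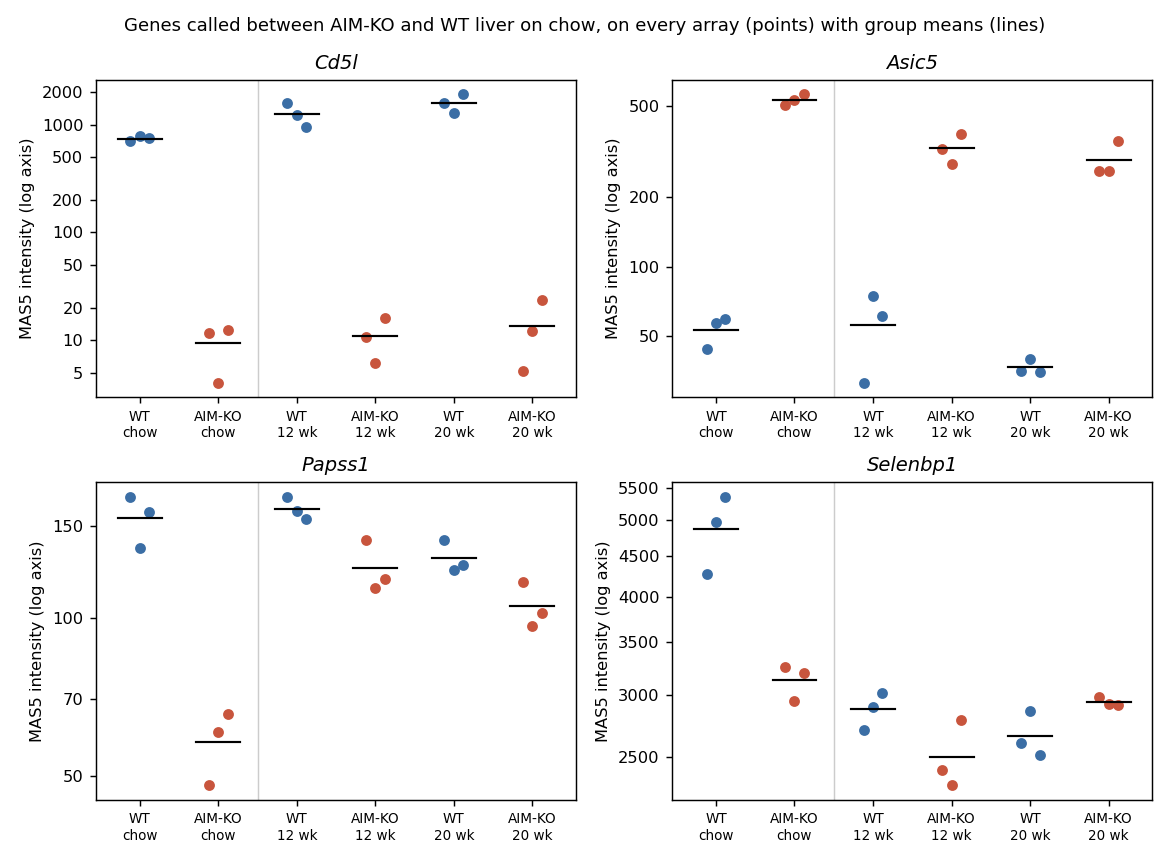
MAS5 intensity (log axis) of the 4 genes called on chow, on all 18 arrays; points are arrays, blue for WT and red for AIM-KO, black lines are group means, and the grey line parts chow from the high-fat diet. The genotypes are apart at every time for Cd5l and Asic5, while Selenbp1 is lower in AIM-KO on chow (2948.9 to 3260.4 against 4273.7 to 5357.1) and slightly higher at 20 weeks (2917.3 to 2979.9 against 2515.8 to 2866.2).

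The number of calls varied with the AIM-KO arrays. Leaving out AIM-KO replicate 1, 2 or 3 each gave 7 calls, and Cd5l, Asic5 and Papss1 were called in all 3 of those fits. The genes gained differed: Dnajb9, Lsr and Mtmr3 without replicate 1, Ntrk2, Tmem254a, Arhgef18 and Mansc1 without replicate 2, and Hsd3b2, Cyp4a14 and Stap1 without replicate 3. Leaving out a WT array gave 3 or 4 calls.

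Differences were small for most genes. The median of all differences was -0.028 and the median size 0.17 on the log2 scale, with a median SE of 0.22. The 95% interval lay within 2-fold in either direction for 10187 genes (69.3%) and within 1.5-fold for 6075 genes (41.3%). A difference above 2-fold was read for 267 genes, 115 higher and 152 lower, and 264 of these were not called. Only 24 of the 267 had a mean intensity above 100, out of 6067 genes that bright. At an unadjusted p under 0.05 there were 1064 genes, 7.24% of those tested, with 402 higher (2.74%) and 662 lower (4.51%). At an unadjusted p under 0.01 there were 278, with 110 higher (0.749%) and 168 lower (1.14%). The 3 AIM-KO arrays did not overlap the 3 WT arrays in 1688 genes (11.5%), of which 714 were higher (4.86%) and 974 lower (6.63%).

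**Figure D2:**
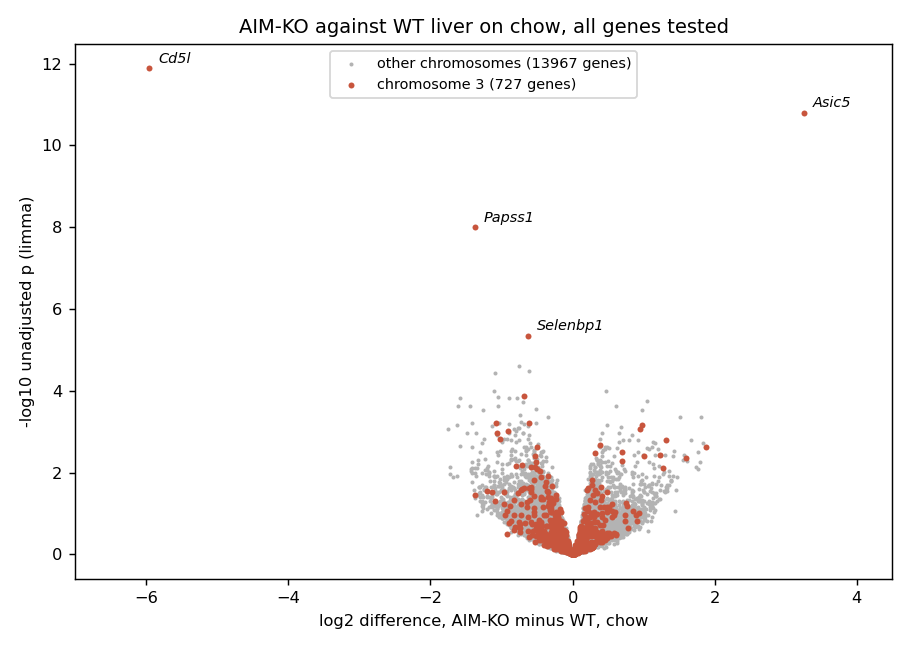
Each point is 1 of 14694 genes: the log2 difference between AIM-KO and WT liver on chow (x axis) against -log10 of its unadjusted limma p (y axis), with 727 chromosome 3 genes in red and 13967 others in grey. Cd5l (-5.96), Asic5 (3.25), Papss1 (-1.38) and Selenbp1 (-0.63) are the 4 genes called.

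The 10 lower genes with the smallest p below those called had adjusted p-values of 0.074 to 0.17. Arhgef18, an exchange factor for the GTPase RhoA, differed by -0.76 and Rab5c, a GTPase of early endosomes, by -0.62. A dimmer probe set of Arhgef18 overlapped, at 12.0 to 17.6 in WT and 7.9 to 25.7 in AIM-KO. Ezr, which links membrane to actin, differed by -1.59, but a second probe set of it differed by 0.08. Lsr, a lipoprotein receptor of hepatocytes and component of tricellular junctions, differed by -0.70. Cyp4a14, a fatty acid omega-hydroxylase and PPAR-alpha target, read 2664.7, 5464.9 and 3174.7 in WT against 1312.8, 1580.4 and 2262.5 in AIM-KO, a difference of -1.10. Mindy1, a deubiquitinase, differed by -0.68, and its 4 next brightest probe sets by -0.47 to -0.88. The remaining 4 were Tmem254a (-1.09), Adck2 (-1.05), Net1 (-0.89) and Fmnl2 (-0.78). In each of the 10 the AIM-KO arrays lay below the WT arrays without overlap, as in 6.63% of all genes. The choice by small p on these same arrays favours that, so it is no further support.

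The 10 higher genes with the smallest p had adjusted p-values of 0.16 to 0.28. Dnajb9, a chaperone partner of the endoplasmic reticulum, differed by 0.68 and Vcam1, an adhesion molecule for leukocytes on endothelium, by 0.95. Col5a2, a fibrillar collagen chain, differed by 1.05, from a WT level of 8.3 to 14.3, and Ntrk2, a neurotrophin receptor, by 0.97. A second, dimmer probe set of Col5a2 differed by 0.16. Ppat, the first committed enzyme of purine synthesis, differed by 0.61. Hsd3b2 is treated with its family further on. Krt31 (1.80) and Pde1b (1.51) were near background in WT, at 1.7 to 8.5 and 2.6 to 11.3. Zfp207 differed by 0.48, but 4 of its 5 dimmer probe sets differed by -0.09 to -0.62, and 1 of these was lower in AIM-KO without overlap (17.8 to 19.4 against 27.4 to 33.7). Commd3 differed by 0.47. In each of these 10 the AIM-KO arrays lay above the WT arrays, as in 4.86% of all genes, which the choice by small p again favours. Of these 20 genes only Hsd3b2 was called at 12 or 20 weeks; Cyp4a14, for example, differed by -0.03 at 12 weeks and 0.31 at 20 weeks.

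On chow chromosome 3 held a larger share of low p-values than any other chromosome. At an unadjusted p under 0.01 there were 31 of its 727 genes (4.26%), against 247 of 13967 elsewhere (1.77%) and 1.89% of all genes; chromosome 1 was next with 2.81%. Across the other ways of processing, the requirement of a 1.5-fold change aside, the share ran from 2.89% to 5.64% on chromosome 3 and from 0.938% to 3.59% elsewhere, and in each of them chromosome 3 had the larger share. At 12 weeks the shares were 4.81% and 2.49%, and at 20 weeks 5.78% and 4.73%. At 20 weeks chromosomes X (7.57%), 19 (6.95%), 10 (6.76%) and 6 (6.01%) had larger shares than chromosome 3. These shares are a description, since neighbouring genes are not independent and the chromosome was singled out after its genes were seen.

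Low p-values on chromosome 3 were found both near Cd5l and far from it. Positions are counted here in protein-coding genes along the chromosome in the GRCm38.p6 RefSeq order. Asic5 lies 35 genes before Cd5l, Selenbp1 206 genes after it and Papss1 533 genes after it. In the 100 genes before Cd5l, 5 of 67 tested had an unadjusted p under 0.01, and in the 100 genes after it 1 of 75 did. More than 200 and up to 400 genes after it the count was 12 of 141 (8.51%). Farther on it was 6 of 200, and more than 200 genes before Cd5l it was 0 of 83.

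The genes next to Cd5l were not called. Of the 10 annotated genes to either side, 7 were tested, with adjusted p-values of 0.60 to 0.96. Cd1d1, which presents lipid antigens, differed by 0.20 and the related Cd1d2 by 0.93, Fcrls by 0.25, the B cell receptor-like gene Fcrl1 by -0.31 and Kirrel by 0.36. Etv3, a transcriptional repressor, differed by -0.33 and Arhgef11, an exchange factor for RhoA, by 0.13. Etv3 probe sets disagreed: the next brightest read 66.3 to 70.8 in WT and 27.9 to 47.8 in AIM-KO, a difference of -0.81 with no overlap, and the 2 dimmer ones differed by 0.39 and -0.43.

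**Figure D3:**
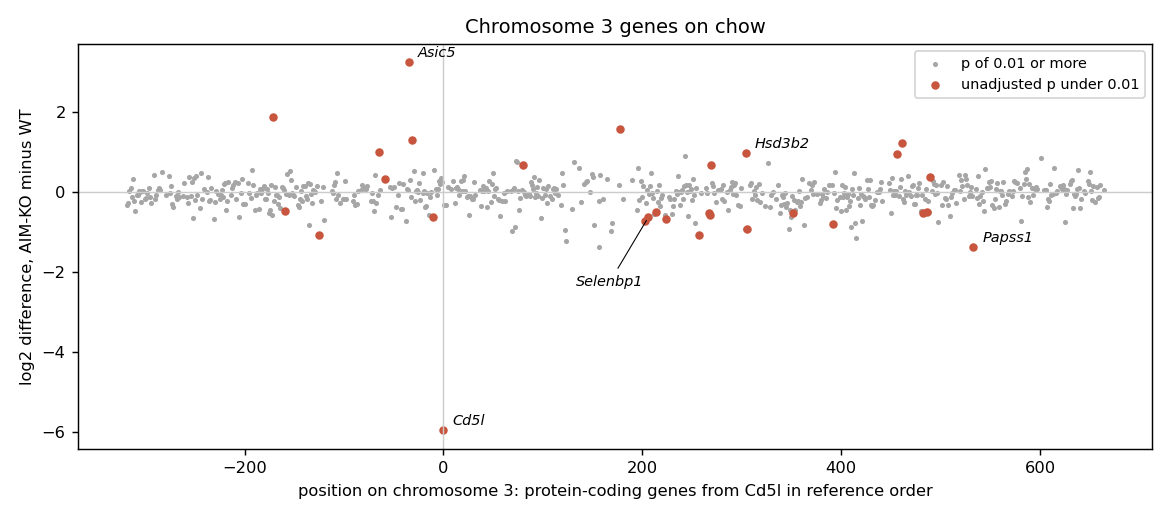
Log2 difference on chow (y axis) of chromosome 3 genes by their place, counted in protein-coding genes from Cd5l (x axis); red points have an unadjusted p under 0.01. Asic5 lies 35 genes before Cd5l and Papss1 533 genes after it, and red points are spread along the chromosome.

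The chromosome 3 genes with low p on chow were followed to the other diets, which are other arrays. Of the 31, 23 (74.2%) had the same sign at 12 weeks and 19 (61.3%) at 20 weeks, against 104 (42.1%) and 113 (45.7%) of the 247 genes elsewhere. At an unadjusted p under 0.05 with the same sign there were 13 of the 31 at 12 weeks and 3 at 20 weeks, and 15 and 19 of the 247; over all genes 8.38% and 13.4% had such a p at those times, in either direction. The 3 genes with both were Cd5l, Asic5 and Papss1. The following genes were chosen after their values were seen, and none was called. B3galnt1, which makes the glycolipid globoside, differed by 1.01 on chow, 1.15 at 12 weeks and 0.48 at 20 weeks. Map9, a protein of the mitotic spindle, differed by 1.31, 1.21 and 0.53, and the histone gene H2bc21 by -1.08, -0.76 and -0.52. Others did not keep their difference: Med12l read -1.06, 0.17 and 0.02, and Bcar3 -0.50, -0.06 and 0.19.

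Gene lists for liver cell types and pathways were read next. The 44 lists hold 671 genes, of which 582 were tested, and Cd5l was the only one called. An unadjusted p under 0.05 was found for 63 of them (10.8%, against 7.24% of all genes). For 379 the 95% interval lay within 2-fold. The list medians ran from -0.55 for the Hsd3b family, with 4 members tested, to 0.30 for the circadian clock genes, beside -0.028 for all genes.

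**Figure D4:**
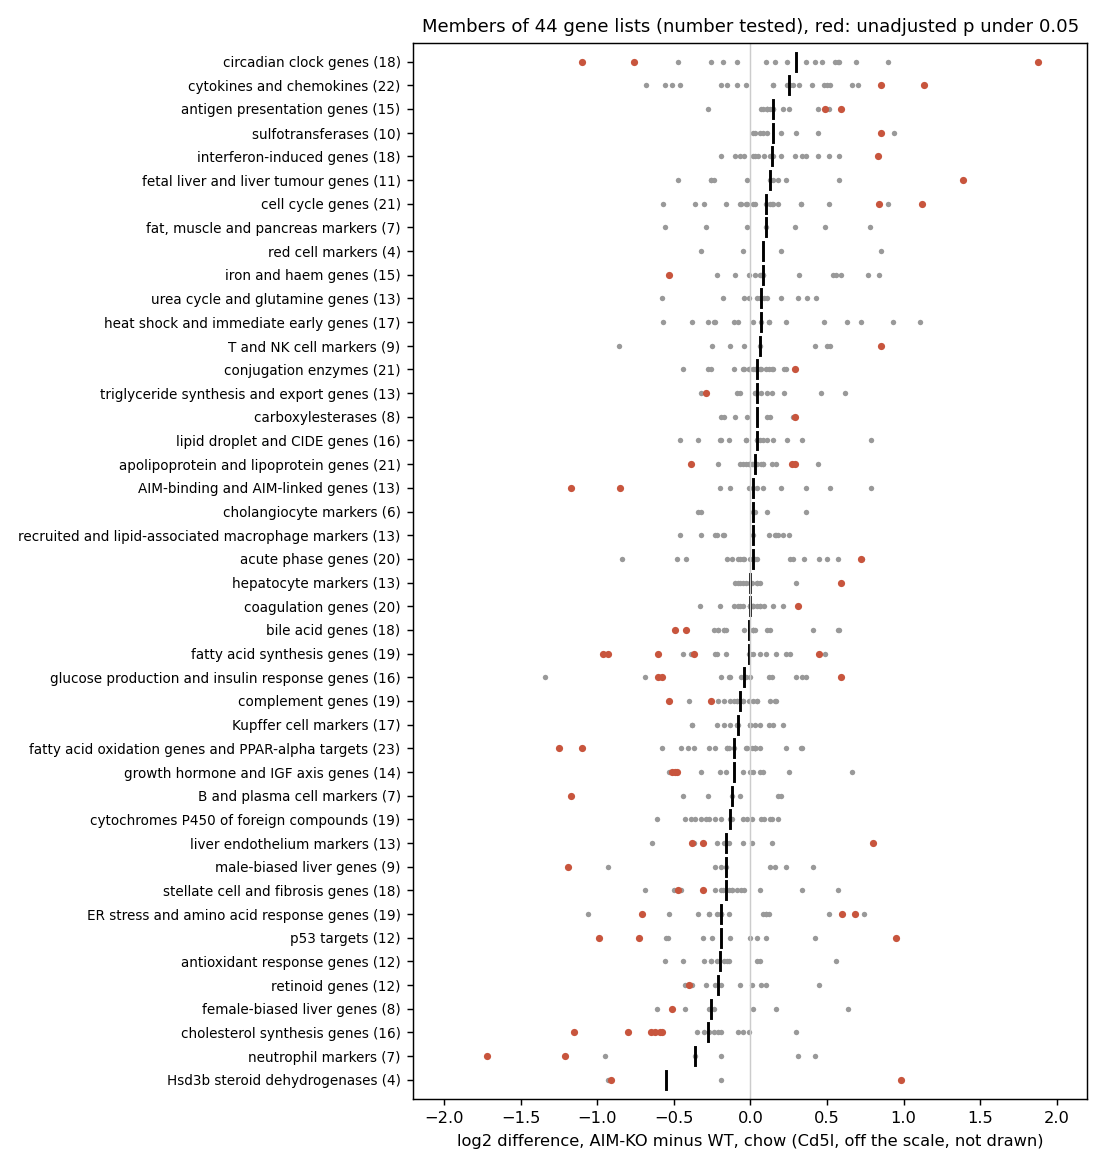
Log2 difference on chow (x axis) of every tested member of 44 gene lists (rows, ordered by median, with the number tested); red points have an unadjusted p under 0.05, black bars are list medians, and Cd5l is left off the scale. The medians lie between -0.55 and 0.30, and members of most lists fall on both sides of 0.

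Among 13 genes tied to AIM's own action only Cd5l was called. Fatty acid synthase (Fasn), the enzyme AIM inhibits, read 2651.1, 778.8 and 1008.8 in WT and 1084.4, 1639.7 and 1137.6 in AIM-KO, a difference of -0.01 ± 0.35 (SE). Its interval ran from -0.76 to 0.73, so a 1.5-fold change was not detectable. Cd36, which takes up AIM, read 233.4, 274.9 and 189.5 in WT and 194.9, 211.7 and 872.0 in AIM-KO: 1 AIM-KO array stood far above the rest. The same array, AIM-KO replicate 3, was highest for Cidec, a protein that fuses lipid droplets, at 46.9 against 6.1 to 12.4 on the other 5. Plin2, the main droplet coat protein of hepatocytes, differed by -0.20 and the lipase gene Pnpla2 by 0.08. Lipe, hormone-sensitive lipase, differed by -0.85 (adjusted p = 0.38) with no overlap between groups. Ighm, the heavy chain of the immunoglobulin that carries AIM, read 336.4, 154.4 and 133.0 in WT and 54.1, 54.1 and 191.9 in AIM-KO, a difference of -1.17 (adjusted p = 0.52) with overlapping groups. Its other probe sets above the filter disagreed in sign, with the next brightest at -0.79 and the one after it at 0.37.

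No other gene of fat metabolism was called. Of 16 lipid droplet and CIDE genes tested, none had an unadjusted p under 0.05, and 13 had an interval within 2-fold; Bscl2, a droplet assembly protein, had the smallest p and differed by -0.19. Without AIM-KO replicate 3, 2 members were lower, and without AIM-KO replicate 1, 1 was lower and 1 higher. Over all 14694 genes 986 and 1427 had such a p in those fits, in either direction. Of 19 fatty acid synthesis genes, 4 were lower and 1 higher at an unadjusted p under 0.05, against 4.51% and 2.74% of all genes, and none was called. The count was 2 lower and 2 higher without WT replicate 1, 6 lower without WT replicate 2 and 2 lower without WT replicate 3. In those fits 1028, 889 and 988 of all 14694 genes had such a p, in either direction. Acacb, which makes the malonyl-CoA that restrains fatty acid oxidation, differed by -0.96 and Insig2, a brake on sterol-regulated transcription, by -0.93 (adjusted p = 0.33 for each). Both were brightest on WT replicate 1, Insig2 at 2833.2 against 1305.3 and 1040.5 on the other WT arrays and 721.7 to 889.5 in AIM-KO. The desaturase gene Fads2 differed by 0.45 (adjusted p = 0.45). Among 23 fatty acid oxidation genes 2 were lower at that threshold and none higher, against 4.51% and 2.74% of all genes. Without AIM-KO replicate 3, 7 were lower and 1 higher, where 986 of 14694 genes had such a p in either direction. The 2 lower with all arrays were Cyp4a14 and Pdk4, the kinase that shuts down pyruvate dehydrogenase. The Pdk4 difference was -1.25, and the gene was brightest on WT replicate 1, at 149.1 against 31.5 and 15.7 on the other WT arrays and 12.7 to 21.0 in AIM-KO. Triglyceride synthesis and export genes had a median of 0.04, with Mttp, which loads lipid onto apolipoprotein B, at -0.29. Of 21 apolipoprotein and lipoprotein genes, 20 had an interval within 2-fold, and Apoc2 differed by 0.27.

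Most bile acid and detoxification genes had an interval within 2-fold, as did 69.3% of all genes. The 18 bile acid genes had a median of -0.01, and 15 had an interval within 2-fold. A 2-fold change was not detectable in Cyp7a1, the first enzyme of bile acid synthesis, which ran from 365.8 to 1105.7 in WT and from 638.2 to 1793.2 in AIM-KO. The canalicular exporters Abcb4, for phospholipid, and Abcb11, for bile salts, differed by -0.49 (adjusted p = 0.35) and -0.42 (adjusted p = 0.63), with no overlap between groups for either. Of 21 conjugation enzymes 20 had an interval within 2-fold, as did 20 of 20 coagulation genes and 7 of 8 carboxylesterases. Their members with the smallest p were Gsta3, a glutathione transferase (0.29), Pros1, protein S (0.31), and Ces1e (0.29). A second probe set of Gsta3 differed by 0.01. None of 19 cytochrome P450 genes of foreign compounds had an unadjusted p under 0.05, but only 12 had an interval within 2-fold. Their median was -0.13, with the caffeine-metabolising Cyp1a2 at -0.32.

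Immune genes differed in both directions, and none was called. The medians were 0.14 for 18 interferon-induced genes, 0.15 for 15 antigen presentation genes and 0.25 for 22 cytokine and chemokine genes. Cxcl9, a chemokine for T cells, read 64.8, 85.3 and 102.9 in WT and 223.4, 133.0 and 213.6 in AIM-KO, a difference of 1.13 (adjusted p = 0.35). Ifit2, an antiviral protein, read 21.5, 17.2 and 13.9 against 37.8, 32.9 and 29.7, a difference of 0.83 (adjusted p = 0.30). The groups of both genes did not overlap. Ccl5, another T cell chemokine, differed by 0.85, and the immunoproteasome gene Psmb8 by 0.59. The acute phase gene Saa1 differed by 0.72, and its list by a median of 0.02. Of 7 neutrophil markers 2 were lower at an unadjusted p under 0.05, against 4.51% of all genes. S100a9 read 43.5, 23.5 and 42.8 in WT and 15.8, 10.8 and 14.2 in AIM-KO (-1.21, adjusted p = 0.60). Mmp9 read 17.9, 8.8 and 17.2 against 1.6, 2.3 and 2.1 (-1.72, adjusted p = 0.49). A second, dimmer probe set of Mmp9 differed by 0.40, and the markers Mmp8 and Elane by 0.31 and 0.42, with Mmp8 higher on every AIM-KO array. These levels are near background. The complement genes had a median of -0.07, with the receptor gene C3ar1 at -0.53 (adjusted p = 0.67). The other probe sets of C3ar1 differed by 0.08 and 0.1. Markers of recruited and lipid-associated macrophages had a median of 0.02.

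Endothelial and stromal genes did not pass the threshold either. Lyve1, a hyaluronan receptor of sinusoidal endothelium, read 57.8, 37.5 and 30.6 in WT and 87.2, 52.8 and 83.8 in AIM-KO, a difference of 0.80 (adjusted p = 0.33). Its second probe set read 30.2 to 36.3 and 30.9 to 43.1, a difference of 0.05. Other members of its list went the other way: Clec4g differed by -0.31 and Stab1 by -0.38, and the list median was -0.16. The 18 stellate cell and fibrosis genes had a median of -0.16, with Ecm1 at -0.31 and Col4a1 at -0.47. The cell cycle list had a median of 0.10; its member with the smallest p, Mki67, was dim at 0.8 to 7.7 in WT and 8.9 to 16.1 in AIM-KO.

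Genes of hormone response and stress were not called. Stat5a, a transducer of growth hormone signals, was 60, 59.8 and 60.5 in WT and 38, 44.4 and 43.7 in AIM-KO, a difference of -0.49 (adjusted p = 0.50), and Stat5b differed by -0.48 (adjusted p = 0.59). A second, dimmer probe set of Stat5a differed by 0.01. The growth hormone and IGF axis list had a median of -0.11, with 3 of 14 lower at an unadjusted p under 0.05, against 4.51% of all genes, and 1 of 14 without AIM-KO replicate 3. Without that array 986 of all 14694 genes had such a p, in either direction. Mdm2, the p53 target that degrades p53, read 138.6, 110.1 and 106.8 in WT and 88.1, 60.8 and 62.6 in AIM-KO, a difference of -0.73 (adjusted p = 0.27), and its second probe set differed by -0.21. Irs1, an adaptor of the insulin receptor, differed by -0.58 (adjusted p = 0.50) and Hjv, a coreceptor that drives hepcidin, by -0.53 (adjusted p = 0.41). Herpud1, which like Dnajb9 is induced by stress of the endoplasmic reticulum, differed by 0.60 (adjusted p = 0.50), while the list of both had a median of -0.19.

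In the male-biased list Elovl3, an elongase of very long fatty acids, read 3418.1, 1904.1 and 1501.3 in WT and 1342.8, 725.1 and 834.5 in AIM-KO, a difference of -1.19 (adjusted p = 0.49). In the female-biased list Cux2, a transcription factor, differed by -0.51 (adjusted p = 0.67), and the list medians were -0.16 and -0.26. At an unadjusted p under 0.05, 0 of 9 male-biased members were higher and 1 was lower, against 2.74% and 4.51% of all genes. With the spread from the 6 chow arrays alone, 1 was higher and 2 were lower. For the 4 members of the Hsd3b family tested these counts were 1 and 1, then 1 and 2. The female-biased list, with 8 tested, had 0 higher and 1 lower either way. Over all 14694 genes such a p was found for 1064 in the main fit and for 802 with the chow arrays alone. The part of the Xist split in these changes was not tested. In the fetal liver and liver tumour list Igf2, a growth factor, read 4.1 to 6.2 in WT and 12.2 to 21.5 in AIM-KO, both near background, and its other probe set differed by -0.17. The antioxidant list had a median of -0.20, with Gclm, a subunit of the glutathione-making enzyme, at -0.17. A second probe set of Gclm overlapped, at 693.0 to 835.5 in WT and 688.3 to 788.9 in AIM-KO. The urea cycle list had a median of 0.07, with the ornithine aminotransferase gene Oat at 0.31, and the glucose production list, which holds Irs1, one of -0.04. The iron and haem list, which holds Hjv, had a median of 0.08. The red cell list had a median of 0.08, with Slc4a1, the anion exchanger of red cells, at 0.85 (adjusted p = 0.74) and near background. The retinoid list had a median of -0.21, with Stra6l, a retinol transporter, at -0.40 (adjusted p = 0.69). The chaperone gene Hspa1a differed by 1.11 with overlapping groups, and Tat, an enzyme of tyrosine breakdown among the hepatocyte markers, by 0.59 (adjusted p = 0.69).

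WT replicate 1 stood apart from the other chow arrays in clock genes, which were chosen for description after their values were seen. Dbp, a clock-driven activator that peaks late in the day, was 403.0 on that array, 2128.1 and 2875.9 on the other WT arrays and 3090.1, 2391.2 and 1099.2 in AIM-KO. Per3 followed it, at 19.5 against 143.8 and 148.2 in WT and 171.5, 143.7 and 62.5 in AIM-KO. Arntl, the core activator, ran the opposite way, at 118.6 against 43.7 and 35 in WT and 15.7, 18.5 and 50.2 in AIM-KO. The labels give no time of sampling, so its part in these values was not tested. The list's median difference was 0.30 with all arrays and -0.13 without WT replicate 1. Clock differed by -0.76 (adjusted p = 0.28), and its 3 other probe sets by -0.52 to -0.88. Noct, a phosphatase with daily rhythm that also lies on chromosome 3, read 192.9 to 406.6 in WT and 603.9 to 1718.5 in AIM-KO, a difference of 1.88 (adjusted p = 0.37).

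The same array led in cholesterol synthesis. Hmgcs1, which makes HMG-CoA for sterols, read 5356.7 on WT replicate 1, 2221.7 and 2442.1 on the other WT arrays and 1980.1, 1504.8 and 1843.4 in AIM-KO, a difference of -0.80 (adjusted p = 0.45). Sqle, the squalene epoxidase, read 315.1, 128.0 and 209.7 against 159.3, 48.2 and 94.5. With all arrays 6 of 16 members were lower and none higher at an unadjusted p under 0.05, against 4.51% and 2.74% of all genes. None was called, and the list median was -0.28. Without WT replicate 1, 0 were lower, 1 was higher and the median was -0.03, and without AIM-KO replicate 2, 2 were lower. Over all 14694 genes 1028 and 1102 had such a p in those fits, in either direction.

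**Figure D5:**
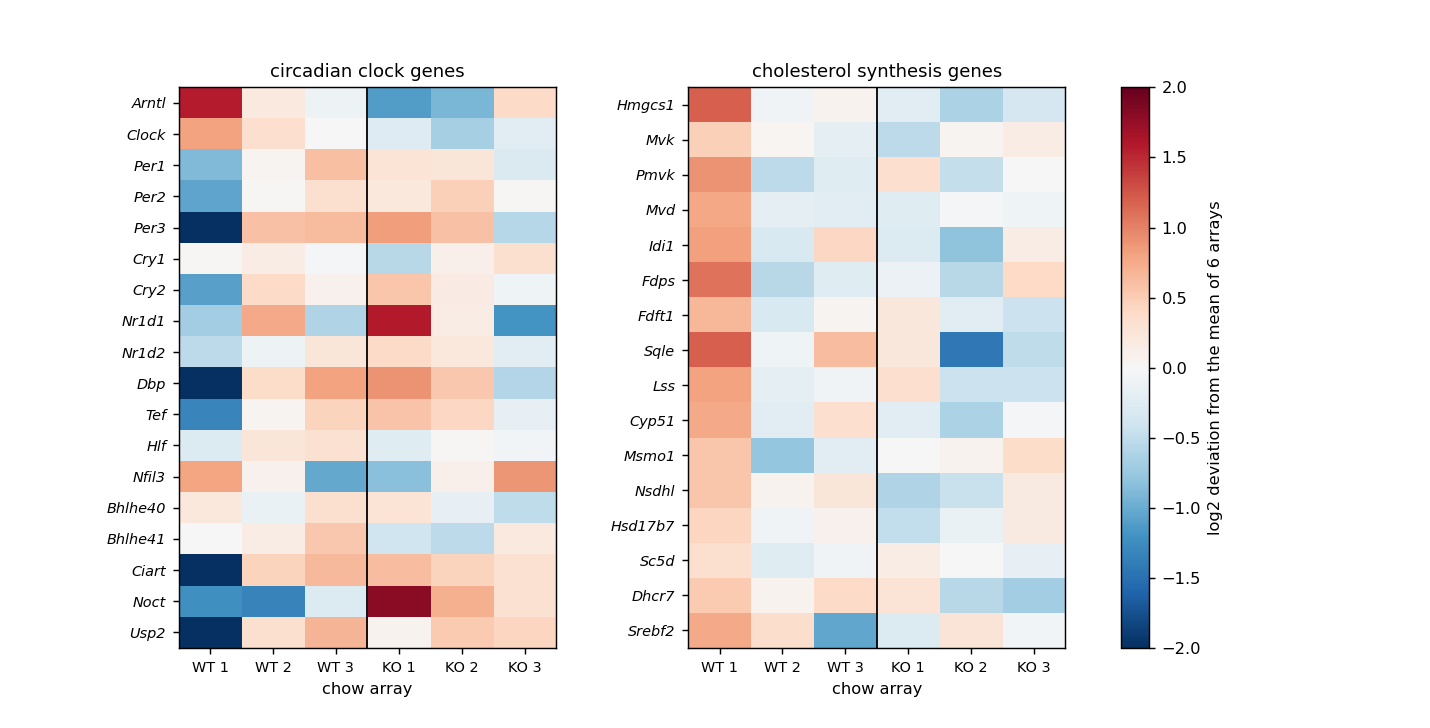
Log2 intensity of each clock gene (left) and cholesterol synthesis gene (right) on the 6 chow arrays, as the deviation from the gene's mean over those arrays (colour scale, ending at -2 and 2). WT replicate 1 (first column of each panel) is low for Dbp (403.0) and Per3 (19.5) and high for Arntl (118.6) and Hmgcs1 (5356.7).

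The Hsd3b genes, chromosome 3 enzymes of steroid synthesis and breakdown, differed in both directions, and none was called on chow. Hsd3b2 read 348.8, 367.5 and 355.9 in WT and 791.2, 1026.3 and 436.4 in AIM-KO, all 3 above WT, a difference of 0.98 ± 0.24 (SE, adjusted p = 0.27). Its neighbour Hsd3b3 read 1078.3, 1181.2 and 1105.5 in WT and 544.8, 737.9 and 526.1 in AIM-KO, all 3 below WT, a difference of -0.91 (adjusted p = 0.29). Hsd3b5, a male-biased member, was even in WT at 2660.1 to 2795.7 and uneven in AIM-KO at 1448.8, 2571.8 and 807.6. Hsd3b7, which acts in bile acid synthesis, differed by -0.19. These genes are close copies of each other, so their probe sets can share signal, and how much was not tested.

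The genotype difference on chow was set against that on the high-fat diet in 1 model, with no array shared between the differences. At 12 weeks 11 genes were called between genotypes (0.0749%), 6 higher (0.0408%) and 5 lower (0.034%), and at 20 weeks 23 (0.157%), 4 higher (0.0272%) and 19 lower (0.129%). Of the 4 genes called on chow, Cd5l and Asic5 were called the same way at both times. The difference at 12 weeks minus that on chow was called for 1 gene, Hsd3b2 (0.00681%), with 1387 genes (9.44%) at an unadjusted p under 0.05. Hsd3b2 read 210.4, 265.0 and 316.4 in WT and 86.8, 85.0 and 121.6 in AIM-KO at 12 weeks, a difference of -1.40 (adjusted p = 0.035) where chow had 0.98, and the change between them was -2.38 ± 0.34 (SE, limma, adjusted p = 0.02). That call was lost without WT replicate 1 (adjusted p = 0.058), 2 (0.081) or 3 (0.088). For 20 weeks minus chow limma called 0 genes, with 1500 (10.2%) at an unadjusted p under 0.05.

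Some immune and endothelial genes had differences of 1 sign on chow and at 12 weeks and the other at 20 weeks. Those described here were chosen after their values were seen. Other genes did so too, such as Cxcl9 (1.13, 1.04 and -0.20), and their number over all genes was not counted. Vcam1 differed by 0.95, 0.96 and -0.93, Ifit2 by 0.83, 1.07 and -0.88 and Lyve1 by 0.80, 0.70 and -1.13 in that order. The change from chow to 20 weeks had an adjusted p of 0.066 for each. Of these differences only the one of Lyve1 at 20 weeks was called (adjusted p = 0.041), at the time when Xist was high on all AIM-KO arrays and on 1 of 3 WT arrays. The part of that split in these values was not tested.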

How the data were processed

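Liver RNA (100 ng a sample, per the labels) was hybridised to 18 Affymetrix mouse arrays, and 6 of these form the chow comparison. The deposited values are linear MAS5 intensity values, 1 per probe set, per the submitters' processing notes. The version of MAS5 and its settings are not given in the sources used here. Each deposited array's trimmed mean, with 2% left out at each end, is 100, so a shift of all genes at once could not be seen. Of 45101 probe sets, 34945 carried 1 gene in the array annotation, 932 several, 9160 none, and 64 were controls; 34741 symbols were updated by gene ID to the GRCm38.p6 RefSeq table.

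From there, log2(intensity + 3.3) was taken, 3.3 being the 20th percentile of all values. Probe sets above the 40th percentile of an array on 3 or more arrays were kept, and the brightest probe set stood for a gene. limma 3.58.1 in R 4.3.3 fitted 6 group means on all 18 arrays, with a variance trend, moderated tests, 2-sided p-values and Benjamini-Hochberg adjustment over 14694 genes. The threshold for a call was an adjusted p under 0.05. The script was tested on simulated data. Intervals are 95% intervals from 18.2 degrees of freedom.

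Named genes were Cd5l, all genes called, the 10 with the smallest p in each direction, the member of each list with the smallest p where none was called, and 10 genes to either side of Cd5l. Genes named beyond this rule were chosen after their values were seen. The comparison and the lists were chosen with earlier results of these data known. Alternatives covered the constant, quantile normalization, the filter, the mean of probe sets, the variance model, array weights, fewer arrays, the replicate number, an actin term, a minimum fold and leaving out each chow array.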

Additional observations from a re-analysis of the deposited data

Results flagged for a closer look

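The genotype difference of Hsd3b2 at 12 weeks minus that on chow was -2.38 on the log2 scale (SE 0.34, limma, adjusted p = 0.02). It drew attention because the effect of genotype differed between diets by a test of that difference: on chow all 3 AIM-KO arrays lay above all 3 WT arrays (436.4 to 1026.3 against 348.8 to 367.5), and at 12 weeks all 3 lay below (85.0 to 121.6 against 210.4 to 316.4). Besides the chow WT arrays named in the report, the call was lost with no variance trend (adjusted p = 0.22), with the 12 chow and 12 week arrays alone (0.068) and with a minimum fold of 1.5 (0.34). Groups of 3 arrays are too small for a test of single arrays that stand apart.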

How the results depend on the processing

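Cd5l and Asic5 were called under every alternative run, and no called value on chow changed direction. Of the chow differences of named genes under alternatives, 1404 kept their sign and side of the threshold, 12 lost and 15 gained a call, and 8, none called, changed sign. The 4 calls on chow became 9 (2 higher, 7 lower) with array weights, 2 (1 lower) with a minimum fold of 1.5 and 3 (2 higher, 1 lower) with the 6 chow arrays alone; leaving out 1 array gave 3 to 7 calls (1 to 2 higher, 2 to 5 lower). Calls for 12 weeks minus chow became 0 with no variance trend, with the 12 chow and 12 week arrays alone or with a minimum fold of 1.5, 20 with array weights and 0 to 2 without 1 array; those for 20 weeks minus chow became 2 with quantile normalization or robust variances, 67 with array weights and 0 to 4 without 1 array. Deviations from the group means had r of 0.06, 0.00 and 0.05 for same-numbered chow arrays and -0.06 to 0.01 for the others. With 3 arrays a group these values cannot show whether the numbers pair samples. With the replicate number as a block there were 4 calls on chow, 2 for 12 weeks minus chow and 5 for 20 weeks minus chow. The block on the 6 chow arrays alone gave 2 higher and 1 lower. Signal limits dim genes: of 267 genes above 2-fold, 24 exceeded a mean intensity of 100.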

Other observations

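Tested by probe set rather than by gene, 7 of 32643 probe sets were called on chow. Apart from those of Cd5l, Asic5, Papss1 and Selenbp1, 3 were called. A probe set of Zap70, a kinase of T cell receptor signalling, that was not the gene's brightest read 82.8, 76.5 and 103.2 in WT and 274.6, 202.7 and 167.9 in AIM-KO, a log2 difference of 1.25 (limma, adjusted p = 0.021), against -0.57 at 12 weeks and 0.46 at 20 weeks. A probe set of Tbx3, a transcription factor, read 113.6, 161.9 and 119.0 in WT and 50.7, 62.5 and 44.5 in AIM-KO, a difference of -1.27 (adjusted p = 0.037), against -0.64 and 0.25. The third is annotated to several genes and is left unnamed; it read 429.7, 465.0 and 399.7 in WT and 216.9, 245.1 and 229.0 in AIM-KO. Its difference was -0.90, -0.92 and -0.84 on chow, at 12 and at 20 weeks, with adjusted p-values of 0.0023, 0.0022 and 0.008, so it was called at all 3 times. It stood outside the gene-level test because a probe set with several genes was not assigned to any.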
